A study of Mus musculus with 19 samples.

Results

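The transcripts described here are 9 genes that mark oligodendrocyte precursor cells and the newly formed oligodendrocytes that arise from them: Pdgfra, Cspg4, Lhfpl3, Sox6, C1ql1, Neu4, Gpr17, Bcas1 and Enpp6. They were chosen by symbol, and all 9 were found among the 55487 genes of each deposited table. Their levels were measured by RNA sequencing of cerebral cortex from male mice of the P301S/E4 genotype, recorded as 41 weeks old in every library. P301S is a tau mutation of inherited frontotemporal dementia, and E4 is the apolipoprotein E form linked to risk of Alzheimer's disease. The promoter that drives the tau transgene is not given in the sources used here, and no library without the P301S/E4 genotype was compared. The 10 lemborexant libraries came from mice that received this blocker of both orexin receptors at 30 mg/kg by daily gavage. The 9 vehicle libraries came from mice given 0.5% methylcellulose in the same way. Dosing took place at zeitgeber time 13 from 7.5 to 9.5 months of age.

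Oligodendrocyte precursors remain spread through the adult cortex, where they divide slowly and respond to platelet-derived growth factor through the receptor that Pdgfra encodes. A precursor that leaves the cycle passes through a committed stage marked by Gpr17, then a short premyelinating stage marked by Bcas1 and Enpp6, and then either dies or makes myelin. Several of the markers are shared with other cells. Pdgfra is also made by meningeal and perivascular fibroblasts, Cspg4 by pericytes, Sox6 by interneurons of the medial ganglionic eminence, and Bcas1 by mature oligodendrocytes. In RNA from whole tissue, fewer cells of a type and less RNA per cell cannot be told apart.

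Libraries held 20185098 to 31795633 estimated reads on genes. Lemborexant 1 and 10, 3 and 8, and 4 and 9 were nearly alike in pairs. Their counts differed with a chi-square of 3.08 to 3.66 per degree of freedom, against 12.2 or more for the other 168 pairs of libraries. Whether these pairs repeat the same RNA is not known, so results are also given with each pair joined, which leaves 16 units. The labels do not tie libraries to separate animals, and the spread that enters each p-value is that between libraries, which may be technical in part. The 4 libraries with under 1 CPM (reads scaled to the depth of the library) of Cst7, a gene of microglia that respond to damage, were lemborexant 1 and 10 and vehicle 1 and 4. Excitatory neuron markers of the cortex were detected in every library, and lemborexant 7 had the lowest score for them, -1.77 as a mean centred log2 CPM against -0.40 or more elsewhere.

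No gene of the 9 passed the test between lemborexant and vehicle. Of 19105 genes tested with edgeR, 2.61% passed an adjusted p of 0.05 (0.953% higher and 1.65% lower), and 0 of the 9 members did, with 2 of 9 at an unadjusted p under 0.05 against 25.7% of all genes. By other tools, DESeq2 called 0 of the 9, and 1825 of 37752 genes in all. Limma's voom called 1 of the 9, Neu4, and 2217 of 19105 genes in all. All 9 members passed the filter on low counts. Of the log2 changes 7 were above 0 and 2 below, with a median of 0.17 against 0.03 over all genes tested. The smallest p belonged to Neu4, which was lower after lemborexant, and the next to Lhfpl3, which was higher.

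**Figure D1:**
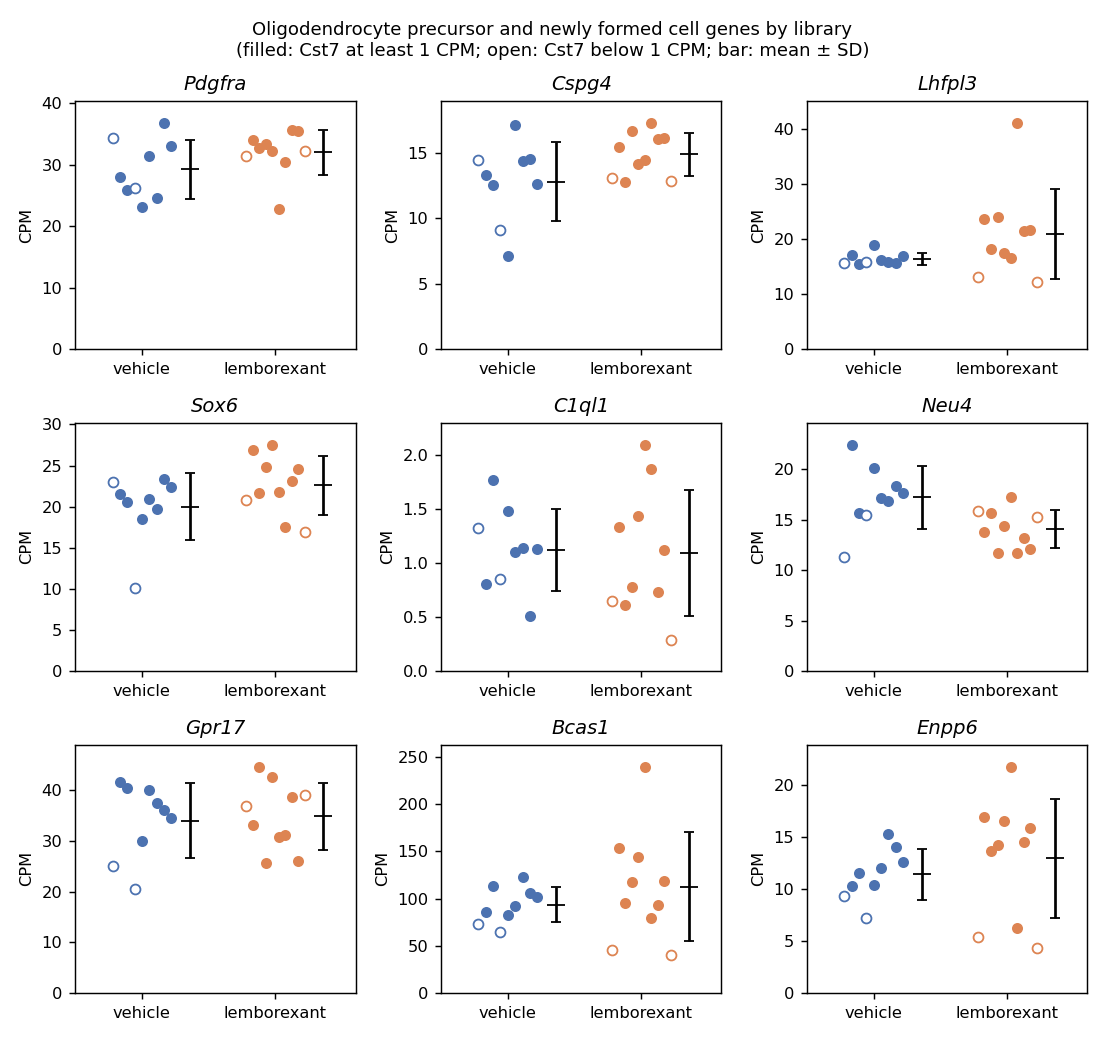
Level of each gene in CPM (vertical axis, from 0) in each vehicle (blue) and lemborexant (orange) library, with open points for the 4 libraries under 1 CPM of Cst7 and black bars for the mean ± SD of 9 and 10 libraries. The groups overlap for every gene, and lemborexant 7 stands at 41.0 CPM of Lhfpl3.

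Per unit of gene length, Bcas1 was the most abundant of the 9 and C1ql1 the least. Median TPM (the deposited level scaled to depth and to effective gene length) over the 19 libraries was 63.7 for Bcas1. It was 10.3 for Lhfpl3, 9.34 for Gpr17, 7.50 for Pdgfra and 6.93 for Neu4. It was 5.80 for Enpp6, 5.74 for Sox6, 4.65 for Cspg4 and 1.498 for C1ql1. Bcas1 exceeded Lhfpl3 in 19 of 19 libraries, and Cspg4 exceeded C1ql1 in 19 of 19. Between these ends neighbours in the order changed places from library to library. The higher gene of a neighbouring pair was the higher in 9 of 19 libraries for Pdgfra over Neu4 and for Enpp6 over Sox6, and in 16 of 19 for Sox6 over Cspg4. Spread between libraries in CPM was smallest for Pdgfra, with a coefficient of variation of 14.1%, and largest for C1ql1, at 43.7%, and Bcas1, at 42.5%.

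Neither Pdgfra nor Cspg4, the classical surface markers of the precursor, passed the test. Pdgfra (ENSMUSG00000029231), the receptor tyrosine kinase through which PDGF keeps precursors dividing, stood at 23.2, 28.02 and 36.8 CPM as the lowest, median and highest vehicle library. In lemborexant libraries the same values were 22.8, 32.5 and 35.7 CPM. The vehicle range contains all lemborexant libraries but replicate 6, which was the lowest of all. Its means were 29.3 ± 4.78 CPM (SD, n = 9) and 32.1 ± 3.65 CPM (SD, n = 10). The fitted log2 difference was 0.13 ± 0.10 (SE), which did not pass (edgeR adjusted p = 0.393). Its 95% interval ran from 0.953-fold to 1.26-fold. On log2(TPM + 1), where the median of all genes was 0.18, the difference was 0.33 (limma adjusted p = 0.152), and on log2(TPM + 0.1), with a median of 0.20, it was 0.38 (limma adjusted p = 0.155).

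Cspg4 (ENSMUSG00000032911), the NG2 proteoglycan after which precursors are also called NG2 cells, ranged from 7.16 through a median of 13.3 to 17.1 CPM in vehicle libraries. In lemborexant libraries it ranged from 12.8 through 15.0 to 17.3 CPM. Vehicle 5 and vehicle 4, at 7.16 and 9.08 CPM, were the lowest libraries, and the other vehicle libraries overlapped the lemborexant ones. Its log2 change was 0.22 ± 0.13 (SE, edgeR adjusted p = 0.275). It was 0.36 on log2(TPM + 1) and 0.44 on log2(TPM + 0.1) (limma adjusted p = 0.116 and 0.12), 0.091 with voom (adjusted p = 0.558) and 0.15 without vehicle 5 (edgeR adjusted p = 0.443).

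Lhfpl3 (ENSMUSG00000106379), a tetraspan membrane protein gene used as a precursor marker, varied much less among vehicle than among lemborexant libraries. Vehicle libraries held 15.5 to 18.8 CPM with a median of 15.8, and lemborexant libraries 12.3 to 41.0 CPM with a median of 19.8. Of the 10 lemborexant libraries 5 lay above every vehicle library and 2, the nearly alike replicates 1 and 10, below every one. The log2 change was 0.35 ± 0.17 (SE, edgeR adjusted p = 0.188), and 0.18 without lemborexant 7 (edgeR adjusted p = 0.351). The 5 libraries above every vehicle one were replicates 2, 4, 7, 8 and 9, and each had a thalamic and hypothalamic marker score of 0.45 to 2.28, above the vehicle scores of -0.92 to -0.16. Replicates 4 and 9 are a nearly alike pair. Lemborexant 3 went against this, with a score of 1.09 and 18.1 CPM of Lhfpl3, inside the vehicle range, while its nearly alike partner, replicate 8, held 21.5 CPM. Lemborexant 7 had both the highest score and the highest Lhfpl3. The part of tissue from those regions in the level of Lhfpl3 was not tested.

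The start of Lhfpl3 is shown because 2 matches to an E-box, the CAGCTG letters read by basic helix-loop-helix factors such as those of the Olig and Ascl families, lie close together in it. The 300 bases from 250 before to 50 after the start, chr5:22745804-22746103 on the plus strand of GRCm38.p6, come from RefSeq, with the matches in capitals.
Lhfpl3: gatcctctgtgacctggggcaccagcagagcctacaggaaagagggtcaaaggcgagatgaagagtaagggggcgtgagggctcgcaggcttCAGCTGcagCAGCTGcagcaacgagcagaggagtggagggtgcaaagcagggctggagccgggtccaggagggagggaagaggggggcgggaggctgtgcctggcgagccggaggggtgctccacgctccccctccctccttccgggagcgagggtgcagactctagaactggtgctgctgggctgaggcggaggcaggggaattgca
The matches begin 158 and 149 bases before the start. CAGCTG was found in 16.3% of 32851 such windows of mouse genes, on both strands, and a match is a description of letters and not of binding.

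Sox6 and C1ql1, a transcription factor and a secreted ligand, also did not pass. Sox6 (ENSMUSG00000051910), which holds precursors in the undifferentiated state, ran from 10.1 through a median of 20.9 to 23.3 CPM in vehicle libraries. In lemborexant libraries it ran from 17.0 through 22.5 to 27.5 CPM. Vehicle 4 was the lowest, at 10.1 CPM, and 4 lemborexant libraries lay above every vehicle one. These were replicates 2, 4, 5 and 9, of which 4 and 9 are a nearly alike pair. Its difference was 0.17 ± 0.13 on the log2 scale (SE), short of the threshold (edgeR adjusted p = 0.396), and the value was 0.08 without vehicle 4. On the deposited TPM values, whose median change over all genes was 0.18 on log2(TPM + 1), the change of Sox6 was 0.48 ± 0.16 (SE, limma adjusted p = 0.084). C1ql1 (ENSMUSG00000045532), which encodes a complement-related ligand of the adhesion receptor Adgrb3, was close to the lower limit of these libraries, with 8 to 61 estimated reads. It stood at 0.506 to 1.76 CPM in vehicle libraries and 0.289 to 2.09 CPM in lemborexant libraries, with medians of 1.13 and 0.950 CPM. Its log2 change was -0.04 ± 0.31 (SE, edgeR adjusted p = 0.945) and its interval ran from 0.624-fold to 1.51-fold.

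Sox6 has 6 starts in the RefSeq table, and 5 of their windows hold ACAAAG or ACAATG, letters read by SOX factors (28.6% of all windows hold either, on both strands). The window with 4 matches, chr7:115995037-115995336 on the minus strand of GRCm38.p6, is shown with those letters in capitals, which on the other strand read CTTTGT and CATTGT.
Sox6: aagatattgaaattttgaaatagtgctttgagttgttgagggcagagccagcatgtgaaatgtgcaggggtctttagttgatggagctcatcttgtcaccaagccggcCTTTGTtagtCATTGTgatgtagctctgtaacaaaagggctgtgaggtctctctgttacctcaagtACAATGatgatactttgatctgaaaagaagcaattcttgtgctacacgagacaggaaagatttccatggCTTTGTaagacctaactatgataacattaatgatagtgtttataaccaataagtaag
The letters CTGGCAC, read by the myelin regulator MYRF, were in none of the 11 windows of the 6 members with an entry and in 5.01% of all windows.

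Among the 9 members, no gene of committed and newly formed cells passed the test, with log2 changes of -0.29 for Neu4, 0.04 for Gpr17, 0.27 for Bcas1 and 0.18 for Enpp6. Neu4 (ENSMUSG00000034000), a sialidase made by precursors and committed cells, was lower after lemborexant without passing the test. Vehicle libraries ran from 11.3 through a median of 17.1 to 22.4 CPM, and lemborexant libraries from 11.7 through 14.1 to 17.2 CPM. All vehicle libraries but replicate 1 held at least 15.4 CPM, and the lowest of all 19 libraries was vehicle 1. The means were 17.2 ± 3.10 CPM (SD, n = 9) and 14.1 ± 1.92 CPM (SD, n = 10). The log2 change was -0.29 ± 0.11 (SE, edgeR adjusted p = 0.11), or 0.817-fold with an interval of 0.698-fold to 0.957-fold.

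How Neu4 was classed depended on the libraries and the scale. Without vehicle 1 its log2 change was -0.35 and passed (edgeR adjusted p = 0.0455). Without the 4 libraries under 1 CPM of Cst7 it was -0.42 ± 0.10 (SE, edgeR adjusted p = 0.0381). With those libraries left out and the nearly alike pairs also summed it was -0.40 and did not pass (edgeR adjusted p = 0.0842). With the pairs summed and all 16 units kept it was -0.29 (edgeR adjusted p = 0.193). With limma's voom and quality weights it passed at -0.40 (adjusted p = 0.01), as did 2217 of 19105 genes. On log2(TPM + 1), where the median of all genes was 0.18, it was -0.06 (limma adjusted p = 0.731). Over all alternatives its adjusted p ran from 0.01 to 0.743, and its direction was lower in each.

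Gpr17 (ENSMUSG00000052229), a receptor that marks committed precursors and restrains their maturation, had nearly equal levels in the groups. Vehicle libraries ran from 20.6 through a median of 36.2 to 41.7 CPM, and lemborexant libraries from 25.6 through 35.0 to 44.6 CPM. The lowest were vehicle 4 and vehicle 1. The log2 change was 0.04 ± 0.13 (SE, edgeR adjusted p = 0.889), with an interval of 0.844-fold to 1.24-fold, and it was -0.13 without the libraries under 1 CPM of Cst7. An exon of Gpr17 overlaps the gene Lims2 on the opposite strand, and the strand setting of the counting is not given in the sources used here.

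Bcas1 (ENSMUSG00000013523), a gene of premyelinating and myelinating oligodendrocytes, ran over a 5.89-fold range across the 19 libraries, against 7.21-fold for C1ql1, the gene with the fewest reads. Vehicle libraries ran from 65.1 through a median of 92.6 to 123 CPM. In lemborexant libraries Bcas1 was lowest at 40.6 and 45.3 CPM in the nearly alike replicates 10 and 1, had a median of 107 CPM, and was highest at 239 CPM in replicate 6. The log2 change was 0.27 ± 0.25 (SE, edgeR adjusted p = 0.512), and 0.08 without lemborexant 6. Enpp6 (ENSMUSG00000038173), a choline phosphodiesterase of newly forming oligodendrocytes, showed the same libraries at its ends. It was lowest at 4.30 and 5.39 CPM in lemborexant 10 and 1 and highest at 21.7 CPM in lemborexant 6, against 7.24 to 15.3 CPM in vehicle libraries. Its log2 change was 0.18 ± 0.25 (SE, edgeR adjusted p = 0.669), with an interval of 0.791-fold to 1.63-fold, and 0.069 without lemborexant 6.

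**Figure D2:**
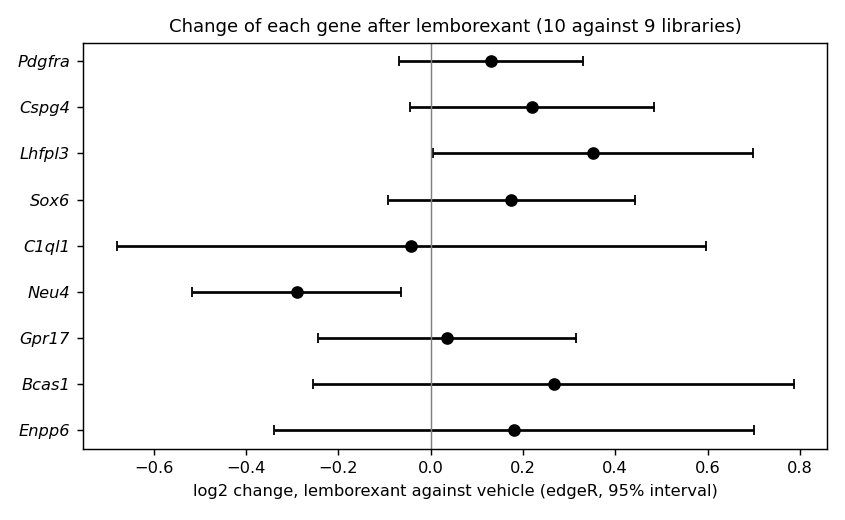
Log2 change of each gene after lemborexant (points, horizontal axis) with its 95% interval from edgeR (bars), 10 against 9 libraries. The intervals of Neu4, below 0, and Lhfpl3, above 0, are the ones that do not cross 0, and neither gene passed after adjustment over all genes.

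Bcas1 and Enpp6 varied together from library to library. Across the 16 units, 1 of 36 pairs of members passed a permutation test with Benjamini-Hochberg adjustment over the pairs, Bcas1 with Enpp6 (Pearson r = 0.92, Spearman rho = 0.95, permutation p = 1e-05 for both, the smallest that 100000 resamples can give, adjusted p = 0.00036). Without the units farthest from the median of Bcas1, those of lemborexant 1 and 10 and of lemborexant 6, r was 0.87. Vehicle 8 and 9 are the units made up only of libraries numbered 859 to 933. Without them r was 0.93 in the 14 units left, which keep the averaged pairs that also hold libraries from that range. Within the 13 units with at least 1 CPM of Cst7 r was 0.85. It was 0.93 in the 7 lemborexant units and 0.93 in the 9 vehicle units. Over all 36 pairs r ran from -0.47 to 0.92 with a median of 0.14. Pdgfra and Cspg4, the classical surface markers of precursors, had r = 0.54, and Pdgfra with Bcas1 and Enpp6 had r = -0.19 and -0.04. Sox6 had r = 0.60 with Enpp6 (rho = 0.66) and r = 0.52 with Bcas1 (rho = 0.61), and C1ql1 had r = 0.56 with Bcas1. Pdgfra with Sox6 had r = 0.46 (rho = 0.69). None of these values passed after adjustment over the 36 pairs. The lowest adjusted permutation p among them was 0.0725, for the rho of Pdgfra with Sox6, and that for the rho of Sox6 with Enpp6 was 0.0836.

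**Figure D3:**
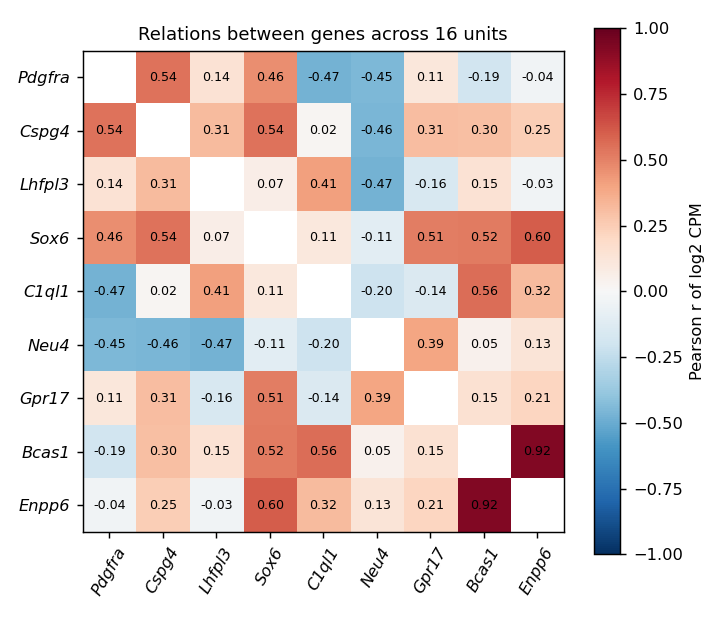
Pearson r of log2 CPM between each pair of genes across 16 units (colour and printed value). Bcas1 with Enpp6 at 0.92 is the highest of the 36 pairs, and Neu4 has negative values with Pdgfra, Cspg4 and Lhfpl3.

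Both premyelinating genes followed the genes of mature myelin. The mature myelin score, the mean centred log2 CPM of 20 genes such as Mbp and Mog, had r = 0.96 with Enpp6 (rho = 0.97) and r = 0.93 with Bcas1 (rho = 0.96), each at a permutation p of 1e-05, the smallest possible, and an adjusted p of 9e-05 over 18 relations. Without lemborexant 6 and the unit of lemborexant 1 and 10, r was 0.92 for Enpp6 and 0.90 for Bcas1. Without vehicle 8 and 9, which left 14 units, these were 0.96 and 0.94. Sox6 had r = 0.60 (permutation p = 0.0136, adjusted p = 0.049) and rho = 0.71 (permutation p = 0.003, adjusted p = 0.0108). Its r was 0.71 without lemborexant 6 and the unit of lemborexant 1 and 10. Pdgfra, Gpr17, Neu4, Lhfpl3, C1ql1 and Cspg4 had r of 0.07, 0.22, 0.04, 0.11, 0.29 and 0.42 with this score and did not pass. With the myelin score as a covariate, edgeR gave lemborexant log2 changes of -0.03 for Bcas1 and -0.12 for Enpp6, in place of 0.27 and 0.18 (edgeR adjusted p = 0.871 and 0.377). The score itself was -1.13 to 0.89 over lemborexant libraries and -0.58 to 0.43 over vehicle libraries. Among its 20 genes is Enpp2, which is also in the list of choroid plexus genes. Enpp2 ran from 115 to 2724 CPM in vehicle and from 179 to 3255 CPM in lemborexant libraries, and its part in the score was not tested.

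The start of Enpp6 is shown as the premyelinating member with an entry in the RefSeq table. It is chr8:46986637-46986936 on the plus strand of GRCm38.p6, with a match to the SOX letters ACAATG in capitals.
Enpp6: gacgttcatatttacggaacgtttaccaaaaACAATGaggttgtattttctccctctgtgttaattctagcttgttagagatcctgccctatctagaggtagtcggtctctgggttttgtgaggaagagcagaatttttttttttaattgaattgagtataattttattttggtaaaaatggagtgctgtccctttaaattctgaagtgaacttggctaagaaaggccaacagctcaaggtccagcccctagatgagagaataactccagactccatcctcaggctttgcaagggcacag
The match begins 219 bases before the start of the gene.

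Pdgfra and Sox6 followed the meningeal genes. The meningeal score, the mean centred log2 CPM of 16 fibroblast genes such as Col1a1 and Dcn, had r = 0.73 with Pdgfra (permutation p = 0.00156, adjusted p = 0.00702) and rho = 0.81 (permutation p = 0.00018, adjusted p = 0.00081). With Sox6 it had r = 0.74 (permutation p = 0.00055, adjusted p = 0.0033) and rho = 0.85 (permutation p = 0.00011, adjusted p = 0.00066). Without lemborexant 2 and the unit of lemborexant 4 and 9, r was 0.74 and 0.72. Without vehicle 8 and 9, which left 14 units, r was 0.70 for Pdgfra and 0.73 for Sox6. The summed meningeal level was 175 to 928 CPM in lemborexant and 202 to 479 CPM in vehicle libraries, and no gene of the list was at 0 in any library. The part of fibroblasts in the levels of Pdgfra and Sox6 was not tested. Enpp6 with the meningeal score had r = 0.50 (permutation p = 0.0491, adjusted p = 0.138). Cspg4 had r = 0.48 (permutation p = 0.0538, adjusted p = 0.138), and neither passed. Bcas1, Gpr17, Lhfpl3, C1ql1 and Neu4 had r of 0.37, 0.20, 0.14, -0.22 and -0.33 with this score and did not pass.

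**Figure D4:**
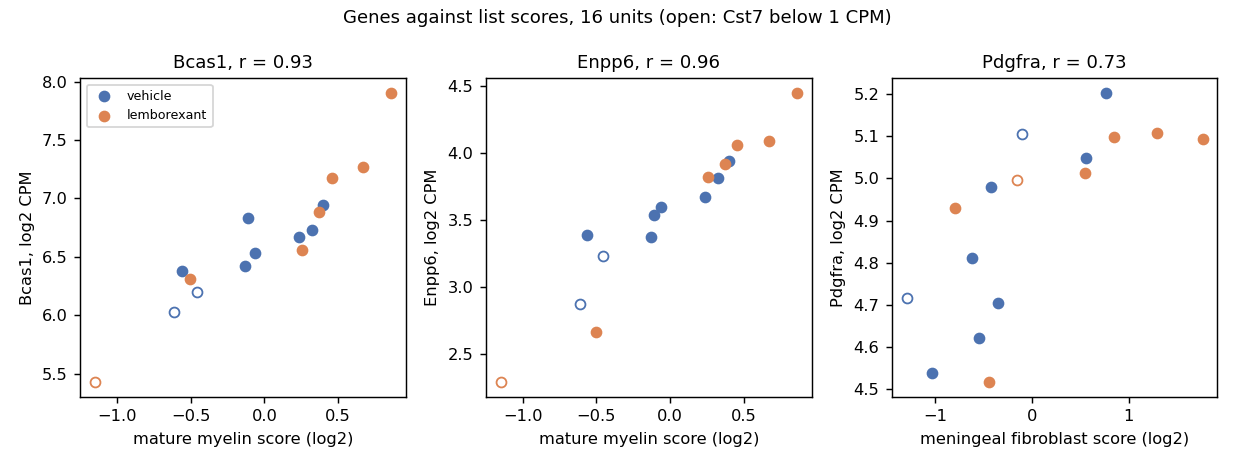
Log2 CPM of Bcas1 and Enpp6 against the mature myelin score and of Pdgfra against the meningeal fibroblast score (each point 1 of 16 units, blue vehicle, orange lemborexant, open under 1 CPM of Cst7). Enpp6 rises with the myelin score at r = 0.96, and Pdgfra rises with the meningeal score at r = 0.73.

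In CPM, libraries with almost no Cst7 held less Bcas1 than all others, while the sets overlapped for Enpp6 and on TPM for both genes. Cst7 was at most 0.253 CPM in 4 libraries and 16.4 to 144 CPM in the other 15, with none in between. The sets come from a measured gene and are no groups of the study, 2 of the 4 are nearly alike, and no test was made across them. Bcas1 ran from 40.6 through a median of 55.2 to 73.4 CPM in the 4 libraries and from 79.1 through 106 to 239 CPM in the 15. That made 1 of 9 members whose sets did not overlap, against 8.6% of all genes tested in either direction and 6.33% in this direction. On TPM the Bcas1 sets overlapped, at 28.4 to 47.7 and 36.5 to 122 TPM, where vehicle 5 was the lowest of the 15. Enpp6 was 4.30 to 9.32 CPM in the 4 libraries and 6.28 to 21.7 CPM in the 15, of which 14 lay above 9.32 CPM and lemborexant 7 did not. On TPM it was 2.48 to 4.39 in the 4 and 2.41 to 11.3 in the 15, and 0 of the 4 lay below all 15. Mature myelin genes took part in the same pattern, with scores of -1.13 to -0.43 in the 4 and -0.53 to 0.89 in the 15, and their part in it was not tested.

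The remaining members overlapped across these sets, as Enpp6 did. Pdgfra was 26.2 to 34.4 CPM in the 4 libraries and 22.8 to 36.8 CPM in the 15, with medians of 31.9 and 32.2 CPM. Cspg4 had medians of 12.99 and 14.5 CPM, Neu4 15.3 and 15.7 CPM, and Sox6 18.9 and 21.8 CPM. Gpr17 had medians of 30.9 and 36.2 CPM, with 20.6 to 39.2 CPM in the 4 libraries. Lhfpl3 was 12.3 to 15.8 CPM in the 4 libraries, and 13 of the other 15 stood above 15.8 CPM. C1ql1 had medians of 0.748 and 1.13 CPM.

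Among the 13 units with at least 1 CPM of Cst7, Pdgfra was lower where Cst7 was higher, short of the threshold after adjustment. This relation was added after seeing the data. Its r was -0.73 (permutation p = 0.00607, adjusted p = 0.0546 over 9 members) and its rho -0.72 (permutation p = 0.00703, adjusted p = 0.0633). Without lemborexant 7 and the unit of lemborexant 3 and 8, r was -0.79. It was -0.66 in the 11 units left without vehicle 8 and 9, -0.58 in the 6 lemborexant units and -0.85 in the 7 vehicle units. The meningeal score had r = -0.41 with Cst7 in the same units, and -0.87 in the vehicle units, and its part in the relation was not tested. C1ql1 had r = 0.62 (permutation p = 0.0244, adjusted p = 0.11) and Cspg4 r = -0.50 (permutation p = 0.0696, adjusted p = 0.209), and neither passed. Bcas1 had r = 0.40 with Cst7 over all 13 units, 0.92 in the lemborexant units and -0.32 in the vehicle units. Enpp6 had r = 0.26, with 0.69 and -0.67 in the same order. The difference between treatments in these values was not tested.

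**Figure D5:**
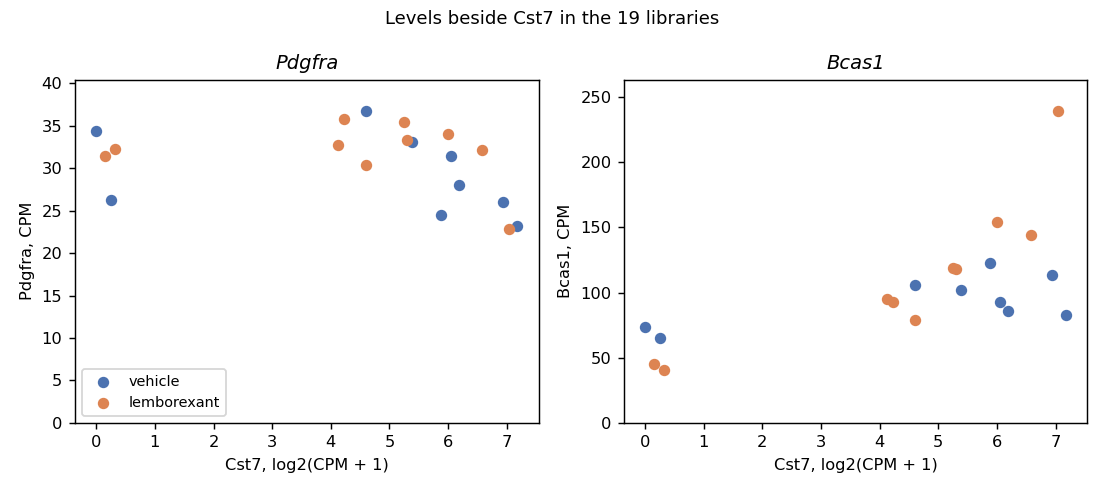
CPM of Pdgfra and Bcas1 (vertical axes, from 0) against Cst7 on the log2(CPM + 1) scale in the 19 libraries, blue vehicle and orange lemborexant. The 4 libraries at the left hold 40.6 to 73.4 CPM of Bcas1, and the lowest Pdgfra, 22.8 CPM, is in lemborexant 6.

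Other genes of the lineage were read from lists chosen for their roles. Of 19 further precursor genes 0 passed, 10 had log2 changes above 0 and 9 below, and the median was 0.04. The cadherin gene Pcdh15 had a log2 change of 0.63 ± 0.20 and Olfml2b one of -0.60 ± 0.20 (SE, edgeR adjusted p = 0.0757 and 0.0828). Of 16 tested genes of committed and newly formed cells, 2 rose and 1 fell (2.61% of all genes were called), with a median of 0.13. Tcf7l2, the Wnt effector that newly formed oligodendrocytes share with thalamic neurons, rose from 34.9 ± 10.4 CPM (SD, n = 9) in vehicle to 73.3 ± 39.0 CPM (SD, n = 10) in lemborexant libraries, at an edgeR adjusted p of 0.0438. It is also in the list of thalamic and hypothalamic markers, of which 4 of 9 tested rose, Tcf7l2 itself included. Among the 4 are Pmch and Avp, each carried mostly by 1 lemborexant library. The part of those regions in the level of Tcf7l2 was not tested. Cnksr3 stood at 2.53 ± 0.714 CPM in vehicle and rose to 4.49 ± 1.64 CPM (SD, edgeR adjusted p = 0.0439). Rras2, a small GTPase, stood at 5.47 ± 1.61 CPM in vehicle and fell to 3.55 ± 0.541 CPM (SD, edgeR adjusted p = 0.0389). With the nearly alike pairs summed edgeR called 0 of all genes, these 3 included (4102 at an unadjusted p under 0.05).

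Lineage transcription factors, PDGF genes and myelin genes had no member past the threshold. Of 16 transcription factors 13 had log2 changes above 0, with a median of 0.17. Myrf, which drives myelin gene expression, had 0.54 ± 0.24 and Zeb2 -0.27 ± 0.13 (SE, edgeR adjusted p = 0.17 and 0.202). Sox10, present through the whole lineage, had 0.41 ± 0.22 (SE, edgeR adjusted p = 0.237). Of the 5 PDGF ligand and beta receptor genes 3 were above 0, with Pdgfrb at 0.35 ± 0.11 and the ligand gene Pdgfd at 0.36 ± 0.19 (SE, edgeR adjusted p = 0.0748 and 0.226). Pdgfa, the ligand of the precursor's receptor, was at 36.4 ± 4.38 and 35.1 ± 5.20 CPM in vehicle and lemborexant libraries (SD, n = 9 and 10). Of 20 mature myelin genes 19 were above 0, among them Enpp2, which is also in the choroid plexus list, with a median of 0.23 over the 20. Aspa, which splits N-acetylaspartate in oligodendrocytes, had 0.41 ± 0.25 and Ermn 0.32 ± 0.21 (SE, edgeR adjusted p = 0.295 and 0.353).

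Markers of other cells that share these genes, and of neighbouring regions, were counted in the same fit, in which 2.61% of all genes were called. With the nearly alike pairs summed 0 genes were called, so none of the calls below remained. Of 16 meningeal genes 15 were above 0 with a median log2 change of 0.90 and 0 passed, and Mgp and Col1a1 stood at 0.91 and 1.27. Of 10 pericyte and mural genes 8 were above 0 with a median of 0.30 and 0 passed, and Pdgfrb and Abcc9 stood at 0.35 and 0.34. The 7 tested interneuron genes had a median of 0.11 and 0 passed, with Gad2 and Erbb4 at 0.36 and 0.35. Of 12 microglia and gliosis genes 0 passed, with a median of -0.25 and P2ry12 and Lpl at -0.43 and -0.47. Of 9 tested cell cycle genes 0 passed, with a median of -0.10 and Pcna and Mcm5 at -0.10 and 0.15. Of 10 hippocampal markers 3 fell, with a median of -1.01 and Nr3c2 and Pkp2 at -0.78 and -0.97. Of 9 thalamic and hypothalamic markers 4 rose, with a median of 1.06, Rgs16 at 1.06 and Pmch at 7.59. Pmch had a lemborexant mean of 118 ± 371 CPM (SD, n = 10), and Avp, also among the 4, one of 47.7 ± 143 CPM. For each of these genes 1 lemborexant library, at 1173 CPM of Pmch and 454 CPM of Avp, carried most of the mean. Of 9 striatal markers 1 rose, with a median of 0.99 and Drd1 and Tac1 at 1.23 and 1.18. Of 10 excitatory neuron genes 1 rose, with a median of -0.05 and Rorb and Cux2 at 0.52 and 0.83. Of 10 choroid plexus genes 0 passed, with a median of 0.71 and Enpp2 and Tmem72 at 0.79 and 0.86.

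The genes whose pattern over the 16 units was most like the mean of the 9 members were Aldh1l2, Efcab14, Phldb1, Gpam, Tmcc3, Myo6, Ddr1, Reep3, Gprc5b and Foxj1. Their r with the mean centred log2 CPM of the members ran from 0.94 to 0.96, the highest among 16461 other genes with a mean of at least 1 CPM. That mean was carried by a few members, with r of 0.89 for Bcas1, 0.83 for Enpp6 and 0.74 for Sox6, against 0.05 for Pdgfra and -0.05 for Neu4.

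In GRCm38 coordinates, Pdgfra spans 75152292 to 75198215 on chromosome 5 and Lhfpl3 22746059 to 23275597 on the same chromosome. Bcas1 spans 170346991 to 170427845 on chromosome 2, Neu4 94020451 to 94028334 on chromosome 1 and Enpp6 46986887 to 47096762 on chromosome 8. Cspg4 spans 56865033 to 56899870 on chromosome 9, Sox6 115470872 to 116038796 on chromosome 7 and C1ql1 102939264 to 102946688 on chromosome 11. The annotation gives each as a protein-coding gene. Exons of Bcas1, Lhfpl3 and Pdgfra overlap other annotated transcripts, most of them on the opposite strand, and reads of these cannot be told apart from theirs without strand.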

How the data were processed

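RNA from frozen cortex was made into libraries with a Takara SMARTer Ultra Low kit, per the labels' protocols. The submitters' processing notes name bcl2fastq, DRAGEN 3.9.3-8 and GRCm38. Annotation release and strand setting: not given in the sources used here. The deposited tables give an estimated count (NumReads) per gene, rounded here to whole numbers, and a deposited TPM value, relative to library total and effective gene length.

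Symbols came from GENCODE's GRCm38 annotation for 55227 of 55487 identifiers. Counts were tested with edgeR 4.0.16 in R 4.3.3 (quasi-likelihood, robust, with TMM factors and filterByExpr, two-sided, Benjamini-Hochberg over 19105 genes, threshold 0.05). Levels are CPM with TMM factors, and log2 CPM used a prior count of 2. Each SE follows from the log2 change and its F statistic (change over root F). Libraries were called nearly alike at a chi-square per degree of freedom under 5, using genes that had 20 or more reads in both libraries summed. Relations were computed across 16 units with 100000 two-sided permutations. In the shallowest library, of 20185098 reads, 1 CPM is about 20 reads.

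The 9 members and the other 15 gene lists were chosen with earlier results of these data known, and so were the tests. Every member was named, together with the 2 genes of smallest p in each other list and the 10 genes most like the members' mean. Cnksr3, Sox10, Pdgfa and the genes that stand as examples of a list were added after their values were seen. Alternatives were DESeq2 1.42.0, RLE factors in edgeR, all genes kept, limma 3.58.1 (voom with quality weights, and log2(TPM + 1) and log2(TPM + 0.1)), the library number range, summed pairs, left-out libraries, a myelin covariate and a threshold of 0.1. The relations with Cst7 and the repeats of the relations between members were added after seeing the data.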

Additional observations from a re-analysis of the deposited data

Results flagged for a closer look

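In 4 of the 18 sets formed by a member and a treatment group, the gap between the extreme library and the next was large against the group's range. The rule used flags about 1 in 20 sets of independent, normally spread values. Lemborexant sets hold nearly alike pairs and the sets share libraries, so the count cannot be set against that rate. Lhfpl3 stood at 41.0 CPM in lemborexant 7, and the next highest lemborexant library held 24.0 CPM. Lhfpl3 stood at 18.8 CPM in vehicle 5, with the next at 17.1 CPM. Pdgfra stood at 22.8 CPM in lemborexant 6, with the next lowest at 30.4 CPM. Sox6 stood at 10.1 CPM in vehicle 4, with the next lowest at 18.5 CPM. Lemborexant 6 was also the highest library for Bcas1, for Enpp6 and for the mature myelin score, at 0.89.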

How the results depend on the processing

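The count of members past the threshold was 0 in 30 of 33 alternatives and 1, Neu4, in 3: without the libraries under 1 CPM of Cst7, with voom, and without vehicle 1 (range 0 to 1 on leaving out 1 library). The count over all genes, 498, was 254 without the expression filter, 1825 with DESeq2, 2217 with voom, 118 on log2(TPM + 1) and 26 on log2(TPM + 0.1). It was 294 with the library number range as a covariate, 8 within libraries 1064 to 1602, 307 without lemborexant 7 and vehicle 7, and 2137 at a threshold of 0.1. It was 0 with pairs summed, and also 0 with pairs summed and the libraries under 1 CPM of Cst7 left out. Leaving out 1 library gave 31 (without lemborexant 9) to 1274 (without vehicle 8). Directions held in all alternatives run for Pdgfra, Cspg4, Sox6, Neu4 and Lhfpl3. Gpr17 turned to -0.14 with voom, -0.13 and -0.12 without the libraries under 1 CPM of Cst7 (pairs separate and summed), and ranged from -0.036 to 0.077 on leaving out 1 library. C1ql1 turned to 0.0736 on log2(TPM + 1) and 0.0735 on log2(TPM + 0.1), 0.058 within libraries 1064 to 1602, 0.15 with pairs summed, and 0.13 and 0.29 without the libraries under 1 CPM of Cst7. It ranged from -0.18 to 0.074 on leaving out 1 library. Bcas1 and Enpp6 turned to -0.028 and -0.12 with the myelin covariate. The cause of these turns was not tested. On TPM, 0 members had separate sets by Cst7. Low depth limits C1ql1 most. No paired analysis was possible because the labels give library numbers and no replicate numbers shared between groups.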
